A study of Mus musculus with 8 samples.

Results

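The genes described here are 10 core members and direct outputs of the circadian clock, namely *Arntl* (which encodes BMAL1), *Clock*, *Per1*, *Per2*, *Per3*, *Cry1*, *Cry2*, *Nr1d1* (REV-ERBα), *Dbp* and *Tef*. They were taken by symbol from the 15859 genes counted in the distal colon of WT and *Hsf1* null mice. All 10 had a mean normalized count above 5 and were among the 14371 genes that were tested. The list was drawn up because RNA of *Per2* and *Tef* differed between the genotypes in untreated mice. The values of untreated mice that led to this choice are therefore given below as a description, without a test.

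RNA was sequenced from 8 male mice on a mixed BALB/c x 129SvEV background, with 2 mice in each of 4 groups. Mice were either WT or lacked *Hsf1*, the gene for heat shock factor 1, a transcription factor that switches on chaperone genes under protein stress. Untreated mice of both genotypes were collected as day 0 controls. Treated mice of both genotypes had been injected with 10 mg/kg of the carcinogen azoxymethane (AOM) at the age of 8 weeks, and from day 7 onward drank 1.5% dextran sulfate sodium (DSS), an irritant that injures the colon epithelium, for 5 days. These mice are called day 15, as in their titles, although the protocol in the labels ends with the last day of DSS. The age given for all mice is 10 weeks. The labels name no promoter or Cre that would limit the loss of *Hsf1* to one cell type. The tissue was homogenized whole, so fewer cells of a type and less RNA per cell cannot be told apart. The hour at which mice were killed is not given in the sources used here.

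The circadian clock is a loop of transcription that runs in most cells of the body, including those of the gut. BMAL1 and CLOCK bind together to short DNA motifs called E-boxes and switch on the *Per* and *Cry* genes, whose proteins return to the nucleus and block them. A second loop is made by REV-ERBα, which represses *Arntl*, and by the ROR receptors, which compete for the same DNA element and activate it. DBP and TEF, together with HLF, are transcription factors of the PAR bZIP family that carry the rhythm to other genes through a motif called the D-box. Because *Dbp*, *Nr1d1* and the *Per* genes are normally high when *Arntl* is low, the level of each of these RNAs depends on the hour of the day at which tissue is taken.

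Total counts were between 2553348 and 12440257 per mouse, and replicate 2 of both untreated groups had the smallest libraries. *Hsf1* itself was between 36.5 and 50.45 CPM (counts scaled to the size of each library) in the 4 WT mice and between 9.095 and 14.0 CPM in the 4 null mice, so every library matched its label. The summed CPM of 6 epithelial genes was between 9473 and 22110 in the 8 mice, and the sum of 6 smooth muscle genes was between 1732 and 7602 CPM. All of these markers were detected in every mouse, so the pieces of colon held RNA of both mucosa and muscle wall. Of the cell markers read, only the neutrophil genes *S100a8*, *Cxcr2* and *Retnlg* were at 0 in any mouse, 1 or 2 of them in each of 3 mice, none of which was a treated WT mouse.

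Promoter sequences of 9 of the 10 genes were read from RefSeq on GRCm38.p6 (mm10), from 250 bases before to 50 bases after each annotated start, which gave 14 windows. They are shown because the E-box, the D-box and the ROR element are the motifs through which the loop acts. The motifs searched, on both strands, were the E-box CACGTG, the variant E-box CACGTT, the D-box as TTATGTAA or TTACGTAA, the core of the ROR element as TAGGTCA or TGGGTCA, and a pair of heat shock units as GAANNTTC or TTCNNGAA. Capitals mark a motif, and each sequence is written 5′ to 3′ on the strand of its gene. Those of *Per3* (chr4:151044616-151044915, minus strand), *Tef* (chr15:81802423-81802722, plus strand), *Nr1d1* (chr11:98775328-98775627, minus strand), *Cry1* (chr10:85185005-85185304, minus strand) and *Arntl* (chr7:113207261-113207560, plus strand) were as follows.
Per3: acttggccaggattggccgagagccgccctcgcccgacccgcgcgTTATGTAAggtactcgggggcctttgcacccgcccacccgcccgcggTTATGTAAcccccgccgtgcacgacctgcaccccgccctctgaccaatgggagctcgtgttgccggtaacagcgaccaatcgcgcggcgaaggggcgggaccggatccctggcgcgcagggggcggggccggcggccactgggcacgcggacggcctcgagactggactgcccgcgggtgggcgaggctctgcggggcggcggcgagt
Tef: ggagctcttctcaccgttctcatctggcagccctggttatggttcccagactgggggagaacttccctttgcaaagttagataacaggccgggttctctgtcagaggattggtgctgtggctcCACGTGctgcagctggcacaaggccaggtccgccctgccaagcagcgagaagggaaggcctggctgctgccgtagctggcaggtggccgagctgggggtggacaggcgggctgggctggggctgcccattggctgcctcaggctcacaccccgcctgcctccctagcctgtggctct
Nr1d1: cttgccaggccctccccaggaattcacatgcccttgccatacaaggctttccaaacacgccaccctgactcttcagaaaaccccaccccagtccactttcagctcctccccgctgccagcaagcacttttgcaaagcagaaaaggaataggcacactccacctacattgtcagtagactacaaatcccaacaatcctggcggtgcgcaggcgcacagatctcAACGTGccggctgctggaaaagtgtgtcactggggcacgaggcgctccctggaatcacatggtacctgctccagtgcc
Cry1: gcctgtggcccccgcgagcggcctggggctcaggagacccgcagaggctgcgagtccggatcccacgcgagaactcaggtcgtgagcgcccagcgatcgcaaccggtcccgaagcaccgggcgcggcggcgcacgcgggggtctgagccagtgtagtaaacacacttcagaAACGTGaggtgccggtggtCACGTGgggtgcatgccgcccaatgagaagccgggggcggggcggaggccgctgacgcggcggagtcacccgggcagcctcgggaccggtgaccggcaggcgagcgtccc
Arntl: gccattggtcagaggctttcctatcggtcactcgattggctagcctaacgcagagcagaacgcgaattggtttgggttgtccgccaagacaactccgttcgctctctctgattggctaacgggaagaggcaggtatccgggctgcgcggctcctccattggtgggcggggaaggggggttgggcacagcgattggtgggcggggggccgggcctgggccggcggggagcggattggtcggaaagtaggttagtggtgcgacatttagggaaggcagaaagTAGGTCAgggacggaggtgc

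*Per3* had the D-box at positions -205 and -158 from the start, a motif present in 1.06% of 32851 mouse promoter windows of this length. *Tef* had the E-box at -127, and its second window, from a start further downstream, had another at -138. The E-box was also found at -60 in *Cry1* and at -166 in *Per1*, against 7.15% of all windows. The variant E-box was found at -28 in *Nr1d1*, at -79 in *Cry1* and at -166 in *Cry2*, against 4.68% of all windows. The ROR core was found in 1 of the *Arntl* windows, at position 31 after the start, and is present in 6.45% of all windows. No motif was found in the windows of *Clock* and *Dbp*, and the pair of heat shock units, present in 15.1% of all windows, was in none of the 14. These are matches of letters within 300 bases and say nothing on binding.

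In treated mice, RNAs of both clock output genes and of 3 of the repressors were lower in colons of WT mice than of null mice. *Dbp*, *Tef*, *Per3*, *Cry2* and *Per2* were lower in WT, from 2.44-fold for *Per2* to 9.94-fold for *Dbp*, while *Arntl*, the activator, had the higher values in WT. Thus 5 of the 10 genes passed the threshold (a change of more than 1 on the log2 scale in either direction and an adjusted p under 0.05, by edgeR's quasi-likelihood test), all of them lower in WT, where 3.17% of all tested genes passed and 1.91% passed as lower in WT. The median log2 fold change of WT over *Hsf1* null at day 15 was -1.52 over the 10 genes and 0.035 over all tested genes. It was -1.04 over the 8 genes other than *Per2* and *Tef*. Leaving aside *Per2* and *Tef*, which led to the list, *Dbp*, *Per3* and *Cry2* were those that passed among the 8 other genes. The comparison of treated genotypes uses none of the mice on which the genes were chosen, although the untreated mice contribute to the estimate of the spread. In an edgeR fit of the treated groups alone, 0 of the 10 genes and 6 of all tested genes passed.

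**Figure D1:**
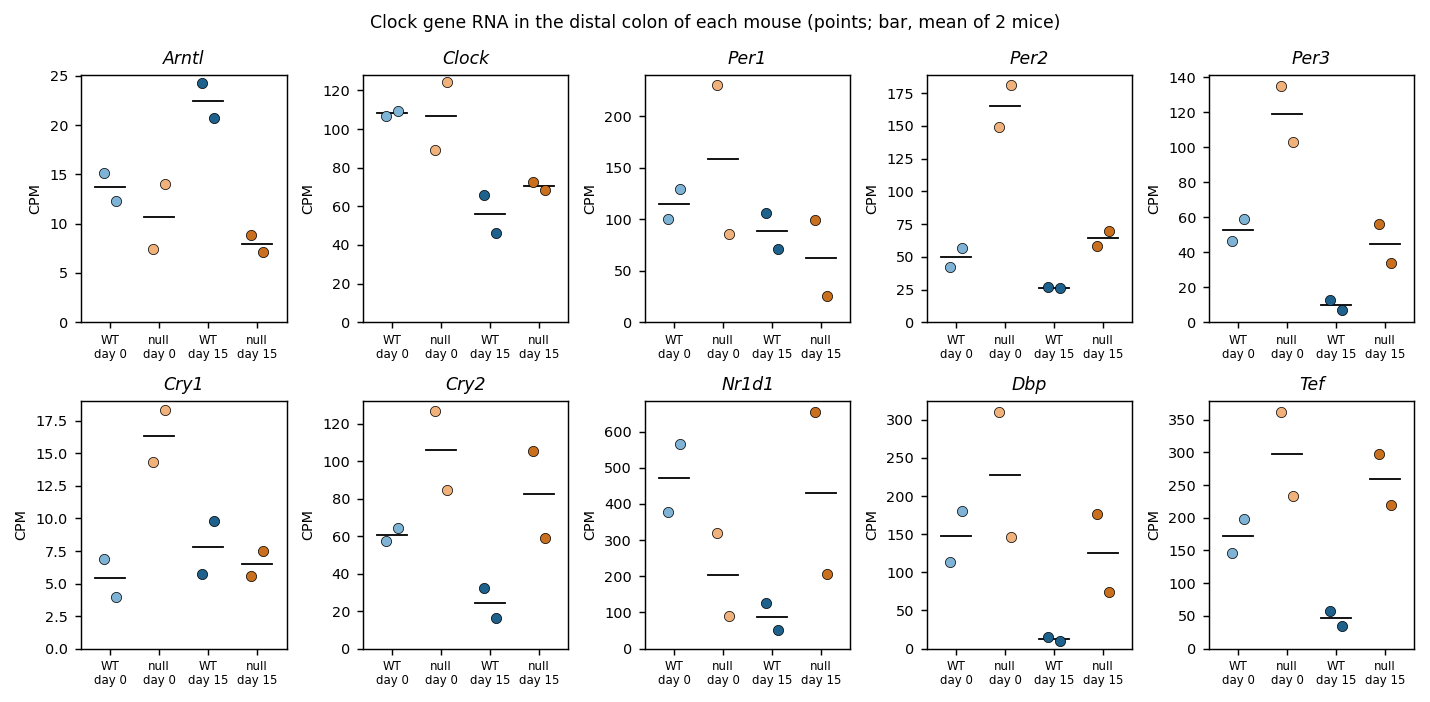
RNA of the 10 clock genes in CPM (vertical axes, each from 0) in the 4 groups, with 1 point per mouse and a bar at the mean of 2 mice. The WT day 15 mice lie lowest for *Per2*, *Per3*, *Cry2*, *Dbp* and *Tef*, with *Dbp* at 15.05 and 10.0 CPM, and highest for *Arntl*, at 24.3 and 20.7 CPM.

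*Arntl* (ENSMUSG00000055116, chr7:113207465-113314126), whose protein is the activator that pairs with CLOCK, was at 24.3 and 20.7 CPM in WT mice at day 15 against 8.84 and 7.09 CPM in treated null mice. Both WT mice were above both null mice, by 1.50 on the log2 scale (SE 0.39). The difference missed the threshold in edgeR's quasi-likelihood test (adjusted p = 0.0643) and passed it in DESeq2 (adjusted p = 0.0172). *Clock* (ENSMUSG00000029238, chr5:76209868-76304792), its partner, was at 66.0 and 45.9 CPM in WT and at 72.75 and 68.6 CPM in null mice. The groups did not overlap, but the log2 difference was only -0.34 (SE 0.26, adjusted p = 0.467 by edgeR's quasi-likelihood test).

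Of the *Per* and *Cry* repressors, 3 of 5 passed. *Per3* (ENSMUSG00000028957, chr4:151003652-151044665) was at 12.5 and 6.76 CPM in WT mice at day 15 against 55.8 and 33.7 CPM in null mice, a log2 difference of -2.21 (SE 0.37, adjusted p = 0.0217 by edgeR's quasi-likelihood test), or 4.61-fold. *Cry2* (ENSMUSG00000068742, chr2:92403646-92434043) was at 32.2 and 16.5 CPM in WT and at 106 and 58.7 CPM in null mice (-1.75, SE 0.39, adjusted p = 0.0445). For both genes the lower null mouse was still above the higher WT mouse. *Per2* (ENSMUSG00000055866, chr1:91415982-91459324) was at 26.6 and 26.0 CPM in WT mice and at 58.3 and 70.1 CPM in null mice, which is -1.29 on the log2 scale (SE 0.25, adjusted p = 0.0309). Its 2 WT values were nearly the same.

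The other repressors did not pass the test between the treated genotypes. *Per1* (ENSMUSG00000020893, chr11:69095217-69109960) was at 106.5 and 71.5 CPM in WT and at 99.3 and 25.01 CPM in null mice, so that the groups overlapped (log2 difference 0.52, SE 0.59, adjusted p = 0.631 by edgeR's quasi-likelihood test). *Cry1* (ENSMUSG00000020038, chr10:85131700-85185064) was at 5.74 and 9.82 CPM in WT and at 5.58 and 7.49 CPM in null mice (0.25, SE 0.44, adjusted p = 0.779). Both log2 differences were smaller than their SE, and *Cry1* rested on as few as 36 counts in a library. *Nr1d1* (ENSMUSG00000020889, chr11:98767932-98775333), which represses *Arntl*, was at 126 and 49.95 CPM in WT and at 655 and 206 CPM in null mice. Both null mice were above both WT mice, but they differed 3.18-fold from each other, and the log2 difference of -2.29 (SE 0.69) did not pass (adjusted p = 0.0942 by edgeR's quasi-likelihood test and 0.0954 by DESeq2).

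In the full fit the output genes had the largest log2 differences between the treated genotypes, with *Nr1d1* (-2.29, SE 0.69) close to *Tef*. Without replicate 1 of WT day 15, *Nr1d1* (-3.11) lay beyond *Tef* (-2.91), as it did without replicate 2 of *Hsf1* null day 15 (-2.89 against -2.69). *Dbp* (ENSMUSG00000059824, chr7:45705088-45710203) was at 15.05 and 10.0 CPM in WT mice at day 15 and at 177 and 73.7 CPM in null mice. Even the lower null mouse was far above both WT mice. The log2 difference was -3.31 (SE 0.51, adjusted p = 0.0187 by edgeR's quasi-likelihood test), and 64 of the 14371 tested genes had a more negative one. Without replicate 1 of *Hsf1* null day 15, the null mouse with more *Dbp*, the log2 difference was -2.56. *Tef* (ENSMUSG00000022389, chr15:81802421-81826863) was at 58.0 and 34.3 CPM in WT and at 297.5 and 219.5 CPM in null mice, a log2 difference of -2.48 (SE 0.35, adjusted p = 0.0137), or 5.59-fold. *Tef* lies on the same chromosome as *Hsf1* and 5.3 Mb from it. Of the 237 tested genes within 10 Mb of *Hsf1*, 8.02% passed the threshold between the treated genotypes, and the part of this region in the *Tef* result was not tested.

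Over all 10 genes, WT and null mice at day 15 did not overlap for 8 genes, 1 higher in WT (*Arntl*) and 7 lower, against 54.8% of all tested genes. The share that lay lower in WT without overlap was 26.3% over all tested genes. Leaving aside *Per2* and *Tef*, 5 of the 8 other genes were lower in WT without overlap and 1 was higher. With 2 mice per group, the calls depended on single libraries, including untreated ones that enter only through the spread. Leaving out replicate 1 or replicate 2 of *Hsf1* null day 0, replicate 2 of WT day 15 or replicate 1 of *Hsf1* null day 15 left 0 of the 10 genes past the threshold (12, 12, 19 and 30 of all genes then passed), while the log2 differences of the 5 genes stayed between -3.81 and -1.15 over all alternatives.

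The makeup of the tissue moved with the genotype in these same mice. The summed CPM of 5 absorptive colonocyte genes was between 491 and 1257 in WT mice at day 15 and between 1826 and 4886 in null mice, with all 5 lower in WT. All 6 smooth muscle genes were also lower in WT (1732 to 2920 against 4171 to 5251 CPM), as were all 6 epithelial genes (14420 to 15190 against 19070 to 22110 CPM). In the other direction, all 6 macrophage genes (900.3 to 1056 against 244 to 437 CPM), 5 of 6 fibroblast genes (2321 to 2344 against 438 to 1408 CPM), all 4 B and plasma cell genes (3153 to 3306 against 166 to 376 CPM) and 4 of 5 neutrophil genes (115 to 484 against 6.20 to 22.6 CPM) were higher in WT without overlap. The part of these shifts in the clock gene differences was not tested.

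From day 0 to day 15 in WT mice, *Dbp* and *Per3* fell, by 11.7-fold and 5.41-fold. Of the 8 genes that could be tested over time (*Per2* and *Tef* were chosen on the untreated mice and get values only), these 2 passed the threshold, where 7.74% of all tested genes passed and 4.27% passed as lower at day 15. *Dbp* was at 114 and 181 CPM in untreated WT mice and at 15.05 and 10.0 CPM after AOM-DSS, a log2 change of -3.54 (SE 0.52, adjusted p = 0.00792 by edgeR's quasi-likelihood test). *Per3* was at 46.65 and 58.8 CPM before and at 12.5 and 6.76 CPM after, a log2 change of -2.43 (SE 0.37, adjusted p = 0.00925). For both genes every treated WT mouse was below every untreated one.

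Several of the other genes were lower in treated WT mice without passing the test. *Nr1d1* was at 378 and 565 CPM at day 0 and at 126 and 49.95 CPM at day 15 (log2 change -2.42, SE 0.70, adjusted p = 0.0602 by edgeR's quasi-likelihood test). *Cry2* was at 57.1 and 64.3 CPM at day 0 (-1.31, SE 0.39, adjusted p = 0.064), and *Clock* was at 107 and 109 CPM (-0.95, SE 0.26, adjusted p = 0.0539). None of these 3 genes overlapped between the days. *Arntl* was at 15.1 and 12.3 CPM at day 0 and so was higher at day 15 in both mice (0.70, SE 0.38, adjusted p = 0.264), while *Per1* at 100.2 and 129.8 CPM and *Cry1* at 6.86 and 3.97 CPM overlapped between the days, with log2 changes of -0.36 (SE 0.59) and 0.46 (SE 0.45). *Per2* was at 42.2 and 56.8 CPM and *Tef* at 146 and 198 CPM in untreated WT mice, which gave log2 changes of -0.90 and -1.89.

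Of the 8 genes other than *Per2* and *Tef*, 5 were lower and 1 was higher in treated than in untreated WT mice without overlap, against 62.5% of all tested genes in either direction. The median log2 change was -1.13 over these 8 genes and 0.005 over all genes. Leaving out replicate 2 of WT day 15 left 0 of the 8 tested genes past the threshold, and leaving out replicate 2 of WT day 0 left 1. Without replicate 1 or without replicate 2 of *Hsf1* null day 15 the count was 4, as *Cry2* and *Nr1d1* then passed. In the same WT mice all 6 smooth muscle genes and 4 of 5 absorptive colonocyte genes were lower after treatment (5654 to 7602 CPM and 2358 to 4108 CPM in sum at day 0). The 6 epithelial genes summed to 14420 to 15190 CPM after treatment against 9473 to 13830 CPM before, with 2 higher and 1 lower without overlap. All 5 neutrophil genes were higher (3.18 to 10.8 CPM at day 0), as were all 4 B and plasma cell, all 4 T cell and 5 of 6 macrophage genes. The part of these cells in the falls of *Dbp* and *Per3* was not tested.

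In *Hsf1* null mice, AOM-DSS was followed by a fall of *Per3* alone among the 8 genes tested, where 11.8% of all tested genes passed and 6.48% passed as lower at day 15. *Per3* was at 135 and 103 CPM in untreated null mice and at 55.8 and 33.7 CPM in treated ones, a log2 change of -1.41 (SE 0.35, adjusted p = 0.0321 by edgeR's quasi-likelihood test), or 2.66-fold. This 1 of 8 is close to the share of all genes, and *Per3* did not pass without any 1 of the 4 null mice. *Dbp* was at 310.0 and 147 CPM before and at 177 and 73.7 CPM after, so that the groups overlapped (-0.87, SE 0.46, adjusted p = 0.222). *Nr1d1* was at 319 and 89.1 CPM before and at 655 and 206 CPM after, which also overlapped (1.07, SE 0.67, adjusted p = 0.297). Without replicate 1 of *Hsf1* null day 15 the log2 change of *Nr1d1* was -0.0013.

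None of the other genes tested passed in null mice. *Cry1* was at 14.4 and 18.3 CPM at day 0 and at 5.58 and 7.49 CPM at day 15, without overlap (-1.31, SE 0.45, adjusted p = 0.0794 by edgeR's quasi-likelihood test). *Per1* was at 230.3 and 85.9 CPM at day 0 and overlapped with day 15 (-1.36, SE 0.60, adjusted p = 0.145). *Clock* was at 89.0 and 124 CPM at day 0 (-0.59, SE 0.26, adjusted p = 0.151), with both treated mice below both untreated ones. *Cry2* (127 and 84.8 CPM at day 0, -0.37, SE 0.38) and *Arntl* (7.39 and 14.0 CPM at day 0, -0.38, SE 0.40) overlapped between the days, with adjusted p of 0.529 and 0.548. *Per2* was at 149 and 181.5 CPM and *Tef* at 362 and 234 CPM in untreated null mice, with log2 changes of -1.36 and -0.21 to day 15. Without replicate 1 of *Hsf1* null day 0 the change of *Tef* was 0.15.

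Of the 8 genes other than *Per2* and *Tef*, 3 (*Clock*, *Per3* and *Cry1*) were lower at day 15 in null mice without overlap and none was higher, against 61.3% of all tested genes in either direction, and the median log2 change was -0.73 over these 8 genes and 0.052 over all genes. In the same null mice 3 of 5 absorptive colonocyte genes (1826 to 4886 CPM in sum at day 15 against 7061 to 7405 CPM at day 0) were lower after treatment without overlap. So were 4 of 6 smooth muscle genes, although the sums of all 6 overlapped (4171 to 5251 against 5159 to 5403 CPM). In the other direction, 4 of 6 epithelial genes (19070 to 22110 against 10330 to 16100 CPM) and all 4 T cell genes (23.9 to 38.8 against 3.95 to 8.05 CPM) were higher, and the part of these cells in the fall of *Per3* was not tested. The changes in WT and null mice thus stand side by side at -3.54 and -0.87 for *Dbp*, -2.42 and 1.07 for *Nr1d1*, -1.31 and -0.37 for *Cry2*, -1.89 and -0.21 for *Tef*, -2.43 and -1.41 for *Per3* and -0.95 and -0.59 for *Clock*. The change in null mice was the more negative one for *Per1* (-0.36 and -1.36), *Per2* (-0.90 and -1.36), *Cry1* (0.46 and -1.31) and *Arntl* (0.70 and -0.38). The difference between these changes was not tested, since it contains the comparison of untreated mice on which the list was drawn up.

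**Figure D2:**
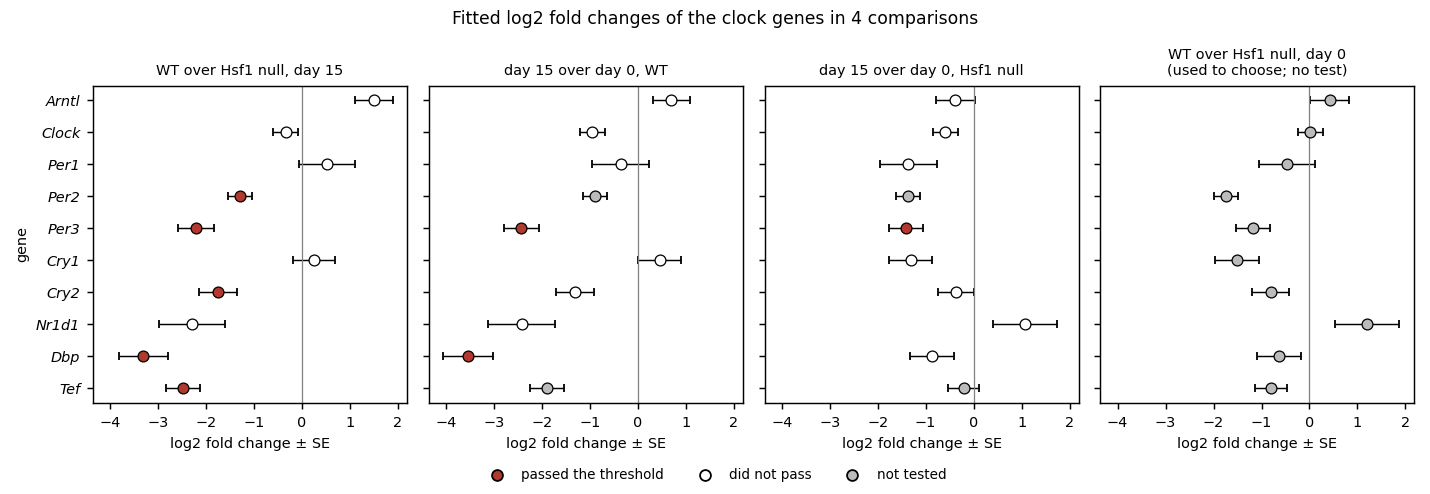
Log2 fold changes (horizontal axes, bars ± SE) of the 10 genes in 4 comparisons from 1 edgeR fit, with 2 mice per group; filled red points passed the threshold, white points did not, and grey points were not tested. *Dbp* lies at -3.31 between the treated genotypes and at -3.54 over time in WT mice, against -0.87 over time in null mice.

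In untreated mice, where the list originated, *Per2* was at 42.2 and 56.8 CPM in WT and at 149 and 181.5 CPM in null mice, 3.36-fold lower in WT (log2 difference -1.75, SE 0.25). *Tef* was at 146 and 198 CPM in WT and at 362 and 234 CPM in null mice, 1.74-fold lower in WT (-0.80, SE 0.34). The genotypes were further apart for *Per2*, while for *Tef* replicate 2 of the null group lay close to the WT mice. Of the other genes, *Per3*, *Cry1* and *Cry2* also lay lower in both untreated WT mice than in both null mice, with log2 differences of -1.18, -1.52 and -0.81. *Nr1d1* alone lay higher in WT, at 1.20, and *Arntl* (0.42), *Clock* (0.02), *Per1* (-0.47) and *Dbp* (-0.64) overlapped. Leaving aside *Per2* and *Tef*, 4 of the 8 other genes did not overlap, where 37.1% of all tested genes did not, and nothing is read from this count since the list was drawn up on these mice. In the same mice the 5 absorptive colonocyte genes summed to 2358 and 4108 CPM in WT and to 7061 and 7405 CPM in null mice (3 of 5 lower in WT without overlap), the 4 B and plasma cell genes summed to between 1698 and 1899 CPM against between 566 and 1421 CPM, and 4 of 6 macrophage genes were higher in WT. The part of these cells in the untreated differences was not tested. *Hsf1* itself, which differed by 1.57 on the log2 scale at day 0 (SE 0.30), had an adjusted p of 0.774 by edgeR's quasi-likelihood test in this comparison and of 0.0335 by DESeq2.

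*Dbp* and *Arntl* usually run in opposite phase, and their ratio was low only in treated WT mice. The ratio of *Dbp* CPM to *Arntl* CPM was 7.53 and 14.7 in untreated WT mice, 41.9 and 10.5 in untreated null mice and 20.0 and 10.4 in treated null mice. In treated WT mice it was 0.62 and 0.485, so that both lay below the other 6 mice, the lowest of which was at 7.53. The ratio was formed after the values of both genes were seen, and no test was made of it.

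**Figure D3:**
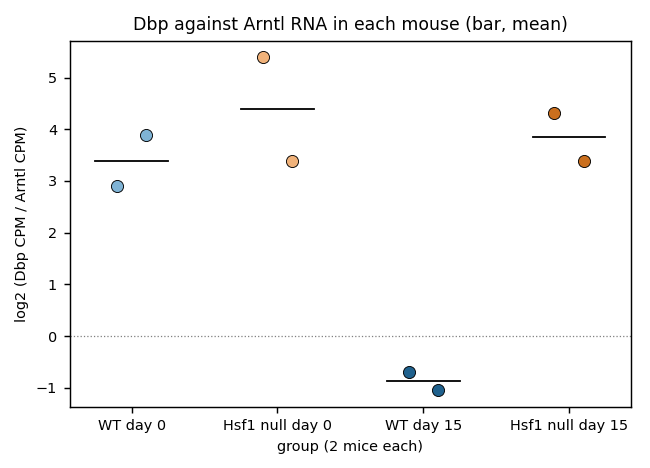
Log2 ratio of *Dbp* CPM to *Arntl* CPM (vertical axis) in the 4 groups, with 1 point per mouse, a bar at the mean of 2 mice and a dotted line at equal CPM. Both treated WT mice lie below 0, at -0.69 and -1.04, and the other 6 mice lie between 2.91 and 5.39.

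Mice of 1 group also differed from each other. *Nr1d1* differed between the 2 mice of a group by 1.49-fold in untreated WT, 3.58-fold in untreated null, 2.53-fold in treated WT and 3.18-fold in treated null mice. The mouse with more *Nr1d1* was replicate 2 in untreated WT and replicate 1 in the other groups. In all 4 groups that same mouse also had more *Per1*, *Per3*, *Cry2*, *Dbp* and *Tef*, and in all 4 it had less *Cry1*. Thus 5 of the 9 other genes sided with *Nr1d1* in 4 of 4 groups, where 12.6% of all tested genes did, and 1 of 9 sided against it in 4 of 4 groups, where 12.1% did. *Clock* sided with it in 3 groups, and *Arntl* and *Per2* in 2.

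In null mice, with *Nr1d1* set aside, *Per1* and *Dbp* differed most between mice of 1 group. *Per1* differed by 3.97-fold in treated null and 2.68-fold in untreated null mice, and *Dbp* by 2.4-fold and 2.11-fold. In treated WT mice *Cry2* (1.95-fold) and *Per3* (1.85-fold) differed more than *Dbp* (1.5-fold), and in untreated WT mice *Cry1* differed most (1.73-fold). The mouse with more *Nr1d1* had the larger library in 2 of 4 groups. It had the higher sum of epithelial and of smooth muscle genes in 3 groups, of absorptive colonocyte genes in 2, of fibroblast, macrophage and B cell genes in none, and of enteric neuron and glia genes in 4. *Nr1d1* was taken as the reference after its spread had been seen, and the part of the hour of collection or of tissue makeup in this pattern was not tested.

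**Figure D4:**
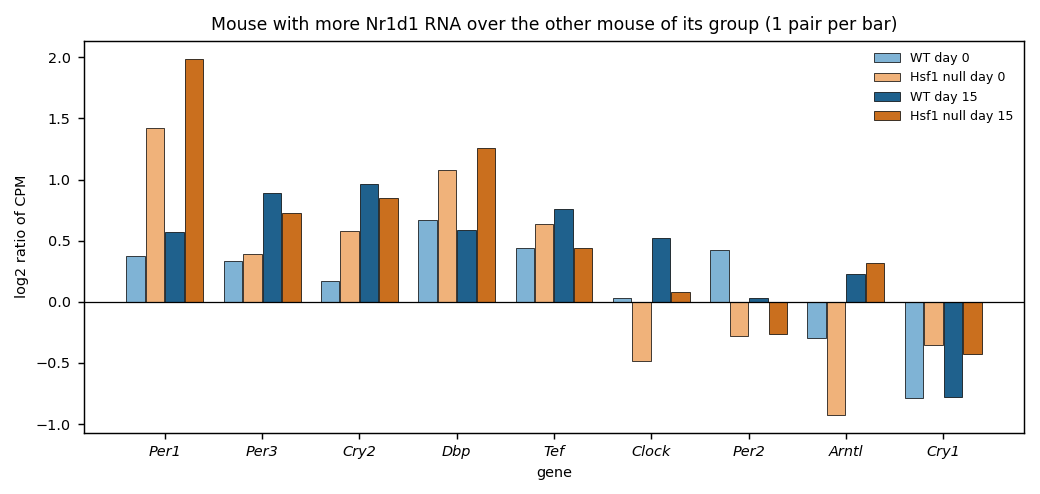
Log2 ratio of CPM (vertical axis) of the mouse with more *Nr1d1* over the other mouse of its group, for the 9 other genes, with 1 bar per group and thus 1 pair of mice per bar. Bars of *Per1*, *Per3*, *Cry2*, *Dbp* and *Tef* are above 0 in 4 of 4 groups, and those of *Cry1* are below 0 in 4 of 4.

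Per kilobase of exon, the level of *Nr1d1* was highest among the 10 genes in untreated WT (153 ± 43.0 CPM per kb, SD, n = 2), treated WT (28.6 ± 17.5) and treated null mice (140.0 ± 103). In treated WT mice it overlapped with *Per1* (15.8 ± 4.39 CPM per kb). In untreated null mice *Dbp* (76.3 ± 38.6 CPM per kb) and *Nr1d1* (66.3 ± 52.8) overlapped, and *Tef* (37.9 ± 11.6), *Per2* (28.2 ± 3.88) and *Per1* (28.1 ± 18.1) overlapped with *Nr1d1*. *Cry1* and *Arntl* were at the bottom at day 0, at 1.62 ± 0.612 and 1.82 ± 0.262 CPM per kb in WT mice, where they overlapped, and at 4.89 ± 0.838 and 1.42 ± 0.623 in null mice, where they did not. *Dbp* held the second place in untreated WT mice (49.2 ± 15.9 CPM per kb) and the fifth in treated ones (4.19 ± 1.19 CPM per kb), there among *Tef* (5.87 ± 2.13), *Per2* (4.49 ± 0.077), *Clock* (4.08 ± 1.03) and *Cry2* (3.85 ± 1.76), from which it could not be separated. *Per3* was lowest there, at 1.00 ± 0.424 CPM per kb, and *Arntl* was lowest in treated null mice, at 1.06 ± 0.165 CPM per kb. These levels use the exons of each gene in GENCODE M21. *Dbp* shares 539 of its 2993 exon bases with *Sphk2* on the opposite strand and *Nr1d1* shares 263 of its 3077 with *Thra*, and since the use of strand in counting is not given, reads from these stretches may belong to either gene.

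Across the 8 mice, the log2 CPM of *Dbp* was most like those of *Fhit*, *Vdr*, *Cyp2d13*, *0610005C13Rik* and *Cyp2f2*, with Pearson's r between 0.987 and 0.999 among the 14370 other tested genes. *Vdr* encodes the vitamin D receptor, and *Cyp2d13* and *Cyp2f2* belong to the cytochrome P450 family. *Per3* (r = 0.967), *Tef* (0.959) and *Cry2* (0.95) held places 54, 92 and 132 in that order, and *Nr1d1* (0.731), *Per1* (0.362) and *Cry1* (0.121) held places 1524, 4360 and 6173. *Arntl* was most like *Adamts10*, *Prpf8*, *Pde4b*, *Slc38a1* and *Gpr146* (r between 0.916 and 0.969). Counted from the opposite end of its order, *Tef* (r = -0.857) held place 118, *Cry2* (-0.764) place 431 and *Dbp* (-0.752) place 501. These coefficients describe 8 mice in 4 groups that share library depth and treatment, and the low mice in the *Dbp* order are the treated WT mice.

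A wider list of 28 genes that regulate or follow the clock was read as well, of which 26 were tested. Between the treated genotypes 2 of the 26 passed the threshold, both lower in WT, where 3.17% of all tested genes passed and 1.91% passed as lower, and the median log2 difference was -0.41. DESeq2 called 7 of the 26 and 8.33% of all tested genes. Among them was *Cipc*, whose protein binds CLOCK and inhibits it (59.5 ± 7.38 CPM in WT and 162 ± 48.7 CPM in null mice, SD, n = 2, log2 difference -1.44, SE 0.30, adjusted p = 0.0371 by edgeR's quasi-likelihood test). *Cipc* held place 9 in likeness to *Dbp* (r = 0.986).

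From day 0 to day 15 in WT mice 5 of the 26 genes passed the threshold, all of them lower at day 15, where 7.74% of all tested genes passed and 4.27% passed as lower, with a median of -0.57. *Nr1d2*, which encodes REV-ERBβ, the close relative of the *Nr1d1* product, was at 88.7 and 112 CPM in untreated WT mice and at 19.2 and 17.4 CPM in treated ones (-2.45, SE 0.27, adjusted p = 0.00432 by edgeR's quasi-likelihood test). *Hlf*, the relative of *Dbp* and *Tef*, was at 8.23 and 11.5 CPM before and at 2.70 and 1.16 CPM after (-2.30, SE 0.52, adjusted p = 0.0297). *Cipc* also fell (-1.54, SE 0.30, adjusted p = 0.019). In null mice 7 of the 26 fell and 1 rose, where 6.48% of all tested genes passed as lower and 5.3% as higher, with a median of -0.61. There *Nr1d2* was at 118 and 168.5 CPM before and at 37.2 and 37.85 CPM after (-1.93, SE 0.26, adjusted p = 0.0123), so that its treated and untreated mice did not overlap in either genotype, while those of *Nr1d1* overlapped in null mice. *Hlf* (-1.79), *Rora* (-1.70), *Wee1* (-1.60) and *Nampt* (-1.44) also fell in null mice. *Wee1* encodes a kinase that holds back mitosis and *Nampt* the enzyme that salvages NAD. Also called in null mice were *Sirt1*, which fell, and *Csnk2b*, which rose, both named here after their values were seen.

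Between mice of 1 group, 7 of the 26 genes sided with *Nr1d1* in 4 of 4 groups (among them *Npas2*, *Bhlhe40*, *Ciart*, *Csnk1d*, *Cipc* and *Usp2*) and 2 sided against it (*Rorb* and *Wee1*), where 12.6% and 12.1% of all tested genes did. These names were chosen after the values were seen. *Ciart*, which encodes a repressor of the clock, was at 19.2 and 44.9 CPM in untreated WT, 113 and 20.8 CPM in untreated null, 9.83 and 4.86 CPM in treated WT and 43.4 and 19.1 CPM in treated null mice.

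Since body temperature and glucocorticoids can also set peripheral clocks, 6 genes that answer to them were read. Between the treated genotypes 1 of the 6 passed, *Rbm3*, a cold-inducible RNA-binding protein, which was higher in WT (80.7 ± 7.24 against 32.1 ± 12.1 CPM, SD, n = 2, log2 difference 1.33, SE 0.30, adjusted p = 0.0449 by edgeR's quasi-likelihood test), and the 6 log2 differences were between -0.10 and 1.38. Over all tested genes 3.17% passed and 1.25% passed as higher in WT, and of the 6 genes 2 passed by DESeq2, where 8.33% of all tested genes did, and 4 had an unadjusted p under 0.05 in edgeR, where 23.2% did. Over time in WT mice 0 of the 6 passed by edgeR, against 7.74% of all tested genes, and 1 passed by DESeq2, against 12.1%. An unadjusted p under 0.05 in edgeR was found for 2 of the 6 and for 27.6% of all tested genes, with log2 changes of the 6 between -0.90 and 1.27. In null mice, where 6.48% of all tested genes passed as lower at day 15, 2 of the 6 fell, *Rbm3* (-1.63, SE 0.30, adjusted p = 0.0162) and *Sgk1*, a kinase gene induced by glucocorticoids (657 ± 196 CPM at day 0 and 60.4 ± 12.4 CPM at day 15, -3.44, SE 0.39, adjusted p = 0.0123). *Rbm3* and *Sgk1* were named after their values were seen.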

How the data were processed

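Distal colon RNA of 8 mice was analyzed by RNA-seq, with 2 mice in each of 4 groups that follow the genotype and day in the labels. The authors aligned reads to mm10 with STAR and deposited raw counts per gene symbol. The counting program, annotation and use of strand are not given in the sources used here. A second deposited table holds the signal that the authors obtained by dividing each count by a DESeq2 size factor. It was used only to check that each sample had a single factor. Every gene in the deposited counts has at least 6 counts in 1 or more samples.

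Counts were fitted in R 4.3.3 with edgeR 4.0.16 (TMM normalization, quasi-likelihood test, 1 model of the 4 groups, prior degrees of freedom 5.97). Testing was limited to the 14371 genes whose normalized counts averaged more than 5, and p-values were adjusted over all of them by the Benjamini-Hochberg method. A gene passed if it changed by more than 1 on the log2 scale with an adjusted p under 0.05. Genotype comparisons are WT over *Hsf1* null and time comparisons day 15 over day 0. The log2 CPM values correlated across mice or genes use a prior count of 2, and log2 fold changes use edgeR's default. With 2 mice against 2, an exact permutation test of a single value cannot go below p = 0.333, so no such test was made.

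The 10 genes, the wider lists, the markers and the tests were chosen with earlier results of these data known. By the rule set for naming, named genes are the 10 genes in every mouse, *Hsf1*, at most 8 genes of the wider clock list by size of change among those that passed, and the 5 genes most like *Dbp* and *Arntl*. Some genes of the wider clock list and of the temperature and glucocorticoid list were named outside this rule, after their values were seen. Values of some single genes of the wider list are not reported here. Positions come from GENCODE M21 on GRCm38, where 15276 of 15859 symbols (96.32%) matched. The fits were tested on simulated data. The alternatives were DESeq2 1.42.0, DESeq2 size factors in edgeR, no filter, filterByExpr, no fold threshold, the replicate number as a block, only the groups compared, and each mouse left out in turn.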

Additional observations from a re-analysis of the deposited data

Results flagged for a closer look

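*Nr1d1* stood on opposite sides of the genotypes at the 2 time points. At day 15 both WT mice were below both *Hsf1* null mice (log2 difference of WT over null -2.29), and at day 0 both WT mice were above both null mice (1.20). Without replicate 1 of *Hsf1* null day 15 the day 15 value was -1.23, and without replicate 1 or replicate 2 of *Hsf1* null day 0 the day 0 value was 2.402 or 0.56. The result is given here because every mouse of one day lay one way and every mouse of the other day the opposite way. The difference between the days was not tested, as the genes were chosen on the untreated mice. Replicates 1 of both null groups were more than 3 times their partners (3.58-fold at day 0 and 3.18-fold at day 15), and the hour of collection is not given in the sources used here.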

How the results depend on the processing

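Between the treated genotypes, 5 of the 10 genes passed. The count was 6 with DESeq2 and 5 with DESeq2 size factors, no filter, filterByExpr, no fold threshold and the replicate block, but 0 with only the groups compared, where 6 of all genes passed. It was between 0 and 6 with each mouse left out, and over all genes between 12 and 871, against 455 in the full fit and 1197 with DESeq2. Over time in WT mice the count of 2 genes was 4 with the replicate block and between 0 and 4 with each mouse left out. Over all genes 1112 passed, 1737 with DESeq2 and between 113 and 1331 with each mouse left out. In null mice the count of 1 gene was between 0 and 1 with each mouse left out, and over all genes between 0 and 1889, against 1692 in the full fit. Without replicate 1 of *Hsf1* null day 15 the 1 gene that passed was *Per1* and not *Per3*.

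Among the clock genes tested, 4 single values changed direction, each of a gene that had not passed and each with 1 mouse left out. These were *Per1* between the treated genotypes (between -0.16 and 1.82 with each mouse left out), *Cry1* in the same comparison (between -0.19 and 0.58), *Arntl* over time in null mice (between -0.82 and 0.11) and *Nr1d1* over time in null mice (between -0.0013 and 2.27). The cause was not tested. *Tef*, which was not tested over time, went from -0.21 to 0.15 in null mice without replicate 1 of *Hsf1* null day 0. In untreated mice, without that same mouse, the genotype difference of *Per1* went from -0.47 to 0.42, that of *Dbp* from -0.64 to 0.0011, that of *Clock* from 0.02 to -0.20 and that of *Arntl* from 0.42 to -0.02. *Cry2* and *Nr1d1* in WT mice passed only with the block, with some other sets of mice or, for *Cry2*, with DESeq2.

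Mice with the same replicate number are different animals and shared only a number. The correlation of their deviations across genes was between -0.29 and 0.148, and no other count of the 10 genes moved with the replicate block. Where a mouse was left out, its group held 1 mouse, which was assumed to vary like the other groups. The smallest libraries, of 2553348 and 2675976 counts, gave as few as 10 counts for *Cry1* and 31 for *Arntl*.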
